A study of Mus musculus with 6 samples.

Results

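The 10 genes described here encode the 2 main pathways by which cells display peptides to T cells. They were chosen by symbol, as the rows of the count tables whose mouse Ensembl identifiers carry the names H2-K1, H2-D1, B2m, H2-Aa, H2-Ab1, H2-Eb1, H2-DMa, H2-DMb1, Cd74 and Ciita, which is 10 of 49585 genes. All 10 were found, and all 10 passed the filter on low counts that left 14785 genes to test. Bulk RNA sequencing was done on haematopoietic stem cells (HSCs), which sit in bone marrow and renew the blood. The cells came from untreated C57BL/6 mice of 8 to 16 weeks and were sorted as lineage-negative cells that carry Kit, Sca-1, CD150 and CD201 and lack CD48 and CD34. They were divided by surface CD38, an enzyme that consumes NAD, into 3 CD38-positive and 3 CD38-negative libraries, each from the pooled cells of 10 mice. The design text joins the libraries into 3 pairs, and replicates 1, 2 and 3 below are these pairs.

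MHC class I molecules are made of a heavy chain, such as those encoded by H2-K1 and H2-D1, held by the light chain beta-2 microglobulin, the product of B2m. They show peptides from the cell's own cytosol, and nearly all nucleated cells carry them. MHC class II molecules pair an alpha with a beta chain and show peptides taken up by endocytosis, mainly on B cells, dendritic cells and macrophages, and they are also found on HSCs. The invariant chain Cd74 escorts new class II dimers to the endosome, the H2-DM dimer loads the peptide there, and Ciita is the coactivator that switches class II genes on.

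For 6 of the genes the stretch of promoter that holds elements known from MHC genes is shown, so that their likeness and differences in sequence can be read beside their levels. The sequences are from RefSeq on GRCm38.p6, in windows of 250 bases before to 50 after the start. Windows were matched for 7 of the 10 genes; H2-Ab1, Cd74 and Ciita were not matched. Capitals mark letters searched on both strands: ATTGG, the core of the Y box bound by NF-Y; TGACG, a core of the cAMP response element (the X2 box of class II genes); a core of the X box bound by RFX; GAANNGAAA, a core of the interferon-stimulated response element; and the kappa B site of enhancer A. The X box core is the first capital run of H2-Eb1 and H2-DMb1, with any base allowed at its positions 3 and 7, and the kappa B site is the first capital run of H2-K1. The words were chosen with the sequences in view.
H2-K1 (chr17:34000349-34000468, minus strand): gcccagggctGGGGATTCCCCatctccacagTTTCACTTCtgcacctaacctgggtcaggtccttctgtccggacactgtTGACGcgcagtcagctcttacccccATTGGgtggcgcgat
H2-D1 (chr17:35262993-35263022, plus strand): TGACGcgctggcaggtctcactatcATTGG
B2m (chr2:122147599-122147648, plus strand): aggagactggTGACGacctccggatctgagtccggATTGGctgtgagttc
H2-Aa (chr17:34287857-34287907, minus strand): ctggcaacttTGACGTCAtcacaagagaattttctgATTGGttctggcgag
H2-Eb1 (chr17:34305765-34305846, plus strand): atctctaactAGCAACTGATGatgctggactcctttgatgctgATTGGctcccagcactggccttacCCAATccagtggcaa
H2-DMb1 (chr17:34153086-34153115, plus strand): aggtttacctAGTAACTGATGatgctaggc

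The stretches for H2-D1 and H2-DMb1 are held to 30 bases because GENCODE places an exon of a longer transcript over them. In H2-K1, H2-D1 and B2m the first letter of TGACG lay 25 bases before that of ATTGG, and in H2-Aa it lay 26 bases before. That arrangement, at 25 or 26 bases on either strand, was found in 54 of 32851 RefSeq promoter windows of the same length (0.164%), although ATTGG alone was in 37.4% and TGACG in 20.8%. H2-Eb1 and H2-DMb1 held the X box core 33 and 34 bases before ATTGG, an arrangement found in 3 windows in all, the other being that of the class II gene H2-Eb2. The X box core alone was in 0.298% of windows. Neither arrangement was found in the windows of H2-DMa. The kappa B site was in 10 windows (0.0304%), those of H2-K1 and H2-D1 included, and GAANNGAAA, which both also held, was in 7.52%. The spacings counted were those seen in the members, whose own windows are included, so the shares are a description only. The 54 windows belonged to 47 genes, 4 of them members. These matches describe letters and not bound sites.

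The libraries held 16771180 to 18558610 counts, and 3 counts corresponded to 0.165 to 0.183 CPM, the count scaled to library size with edgeR's TMM factors. Defining HSC transcripts were present in every library, with Kit at 109.6 to 555 CPM and Procr at 33.2 to 67.4 CPM. Neutrophil transcripts were present too, although the sort removed lineage-positive cells: the summed level of 10 neutrophil genes was 70184 to 159550 CPM in CD38-positive and 79640 to 127895 CPM in CD38-negative libraries. The CD38-negative replicate 2 stood apart in HSC transcripts, with a summed level of 10 HSC genes of 1830 CPM against 637 to 1347 CPM in the other 5 libraries. Its partner, the CD38-positive replicate 2, had 790 CPM. Values without this pair are given beside the results they change. In bulk RNA, fewer cells of a type and less RNA per cell cannot be told apart.

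Per length, the 10 genes were spread from the top of the transcriptome to near its floor. On the RPKM scale, which is CPM divided by the kilobases of merged exon, the means over the 6 libraries were 5905 for B2m, 906 for H2-D1 and 500.2 for H2-K1, above 99.4% or more of the tested genes. The class II genes were far lower. H2-Ab1, the A beta chain, and Cd74 had means of 68.1 and 67.1 RPKM, H2-Eb1, the E beta chain, had 38.3, and H2-Aa, the A alpha chain, had 36.1 RPKM. The peptide-loading genes H2-DMa and H2-DMb1 had 23.2 and 22.9 RPKM. Ciita, whose product acts on the class II promoters, was at 0.389 RPKM, above 9.73% of tested genes only.

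**Figure D1:**
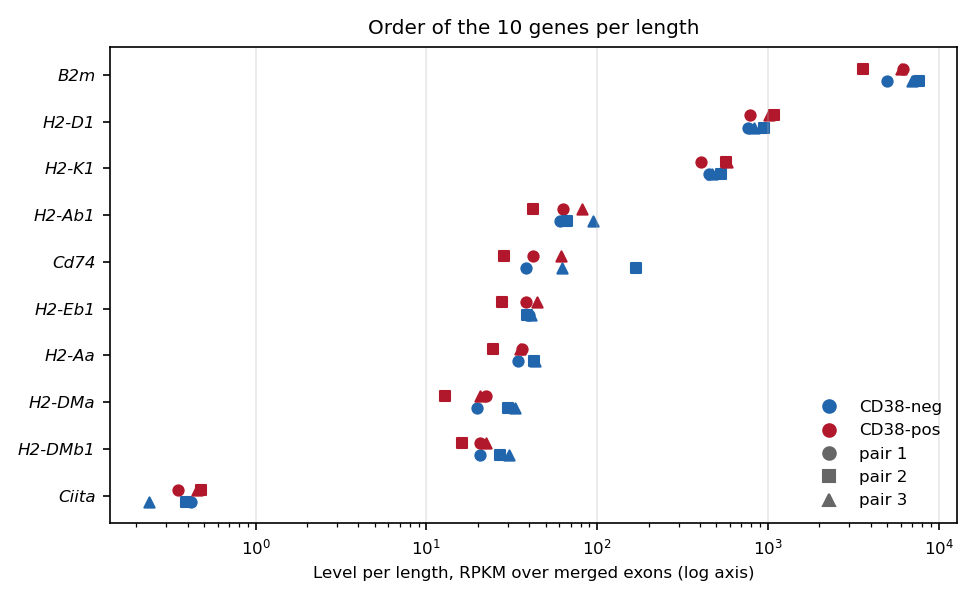
Level of each presentation gene per kilobase of merged exon (RPKM, log axis) in each of the 6 libraries, blue for CD38-negative and red for CD38-positive, with the marker shape giving the pair. B2m, H2-D1 and H2-K1 held the first 3 places in every library and Ciita the last, while neighbours among the other class II genes had overlapping ranges.

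The order was fixed at the top and the bottom and not in between. B2m ranked 1, H2-D1 ranked 2, H2-K1 ranked 3 and Ciita ranked 10 in 6 of 6 libraries, and their ranges did not meet: the lowest B2m level was 3598 RPKM against a highest H2-D1 level of 1088, and the lowest H2-D1 level was 769 against a highest H2-K1 level of 573 RPKM. H2-K1 did not fall below 407 RPKM, and the highest class II level was Cd74 at 169.8 RPKM in the CD38-negative replicate 2. Among the class II genes, H2-Ab1 and Cd74, H2-Eb1 and H2-Aa, and H2-DMa and H2-DMb1 were neighbours whose ranges overlapped. H2-Ab1 ranked 4 in 5 libraries, and Cd74 took that place in the CD38-negative replicate 2. With the longest annotated transcript as the length, the means changed to as much as 144 RPKM for H2-Ab1 and 784 RPKM for H2-K1, and their order stayed as given.

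The class I heavy chains varied least. H2-K1 (ENSMUSG00000061232, GRCm38 chromosome 17, 33996017 to 34000347, minus strand) was at 1196, 1661 and 1683 CPM in CD38-positive replicates 1, 2 and 3 and at 1335, 1560 and 1382 CPM in their CD38-negative partners. The groups overlapped, and the CD38-positive replicate 1 was the lowest library. H2-D1 (ENSMUSG00000073411, chromosome 17, 35262730 to 35267499, plus strand) was at 2021, 2805 and 2631 CPM in CD38-positive and 1984, 2436 and 2146 CPM in CD38-negative replicates 1, 2 and 3. It was higher in the CD38-positive library of 3 of 3 pairs, with log2 differences of 0.026, 0.20 and 0.29. Of tested genes, 13.2% were higher in 3 of 3 pairs and 24.5% had one direction in all pairs. The groups of H2-D1 overlapped. The highest library was 1.41-fold above the lowest for H2-K1 and for H2-D1 alike, and 16.3% and 19.0% of tested genes varied less over the 6 libraries.

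Neither heavy chain passed the test. The log2 fold change of CD38-positive relative to CD38-negative cells was 0.071 for H2-K1 (SE 0.21, 95% interval -0.37 to 0.51, edgeR adjusted p = 0.975) and 0.17 for H2-D1 (SE 0.21, 95% interval -0.27 to 0.62, edgeR adjusted p = 0.944). The ratio of H2-D1 to H2-K1 per length was nearly constant, from 1.69 to 1.92 over the 6 libraries. These genes share sequence with other class I genes: of the 50-base words of their longest coding transcript, 8.79% for H2-K1 and 14.3% for H2-D1 also occur in a transcript of another gene, and 0% and 4.64% of 100-base words do. How the authors' counting treated such reads is not given in the sources used here, so the split between the class I loci is uncertain to that extent.

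B2m (ENSMUSG00000060802, chromosome 2, 122147686 to 122153083, plus strand) moved apart from the heavy chains. Its level was 5320, 3094 and 5188 CPM in CD38-positive replicates 1, 2 and 3 and 4285, 6552 and 6029 CPM in CD38-negative replicates 1, 2 and 3. The lowest and the highest library were the partners of pair 2, and the groups overlapped. The log2 fold change was -0.33 (SE 0.27, 95% interval -0.90 to 0.25, edgeR adjusted p = 0.932), with differences of 0.31, -1.08 and -0.22 in pairs 1, 2 and 3, and without pair 2 it was 0.035. The ratio of B2m to H2-D1 per length ran from 3.31 in the CD38-positive replicate 2 to 8.42 in the CD38-negative replicate 3.

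**Figure D2:**
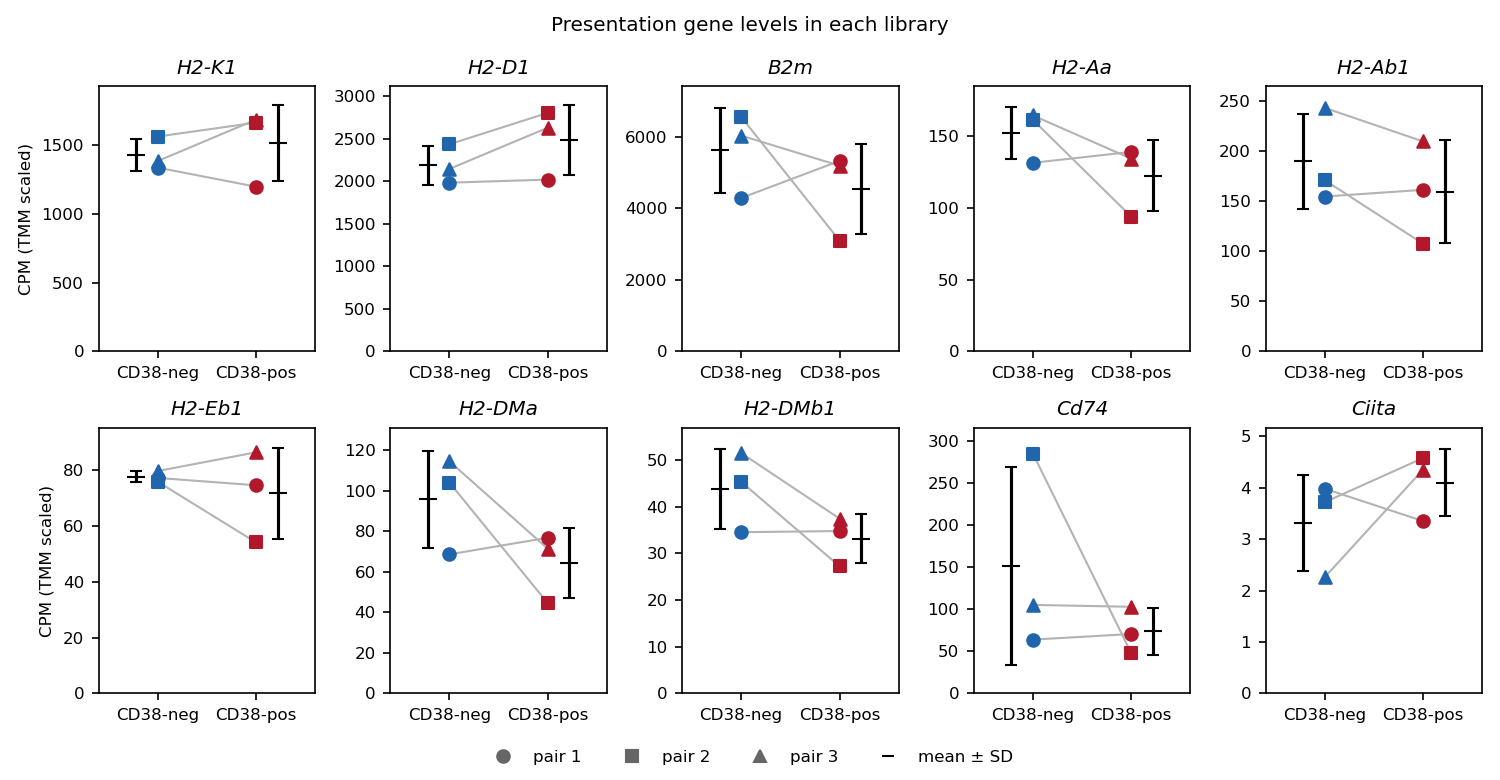
Normalised level (CPM, axes from 0) of each of the 10 genes in CD38-negative (blue) and CD38-positive (red) libraries, with grey lines joining the libraries of a pair and bars for the mean ± SD of 3 libraries. The groups overlap for every gene, and the widest gap within a pair is that of Cd74 in pair 2, 285 against 47.9 CPM.

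The class II chain genes were lowest in the CD38-positive replicate 2. H2-Aa (ENSMUSG00000036594, chromosome 17, 34282744 to 34287823, minus strand) was at 139, 93.8 and 134 CPM in CD38-positive and 131, 161 and 164 CPM in CD38-negative replicates 1, 2 and 3. H2-Ab1 (ENSMUSG00000073421, chromosome 17, 34257689 to 34269419, plus strand) was at 162, 108 and 210.1 CPM in the CD38-positive and 155, 171 and 244 CPM in the CD38-negative libraries in the same order. H2-Eb1 (ENSMUSG00000060586, chromosome 17, 34305867 to 34316674, plus strand) was at 74.5, 54.0 and 86.2 CPM against 77.1, 75.7 and 79.6 CPM. The groups overlapped for all of these genes, and the CD38-negative level of H2-Eb1 was 77.5 ± 1.93 CPM (SD, n = 3).

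None of the chain genes passed the test. The log2 fold changes were -0.33 for H2-Aa (95% interval -0.77 to 0.11), -0.27 for H2-Ab1 (-0.70 to 0.16) and -0.14 for H2-Eb1 (-0.56 to 0.28), with edgeR adjusted p-values of 0.929, 0.932 and 0.955. Without pair 2 they were -0.12, -0.090 and 0.020. The alpha gene that pairs with H2-Eb1 was not detected: the pseudogene H2-Ea-ps had 0 counts in all 6 libraries, which allows a level of up to 0.183 CPM. C57BL/6 mice carry an inactive E alpha gene and make no I-E dimer on the cell surface, as background.

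The invariant chain gene Cd74 (ENSMUSG00000024610, chromosome 18, 60803848 to 60812652, plus strand) had the widest range of the 10 genes. It was at 70.6, 47.9 and 103 CPM in CD38-positive replicates 1, 2 and 3 and at 64.0, 285 and 105 CPM in CD38-negative replicates 1, 2 and 3. The CD38-negative replicate 2 was high and its partner was the lowest library, a 5.95-fold gap, and 95.01% of tested genes varied less over the 6 libraries. The log2 fold change was -0.77 (SE 0.40, 95% interval -1.64 to 0.092, edgeR unadjusted p = 0.0759, adjusted p = 0.926). It came from pair 2, at -2.57, while pairs 1 and 3 were at 0.14 and -0.031, and without pair 2 it was 0.042.

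The excess of Cd74 in the CD38-negative replicate 2 was not shared by the class II chains. The ratio of Cd74 to H2-Ab1 per length was 0.67, 0.68 and 0.75 in CD38-positive replicates 1, 2 and 3, and 0.63, 2.55 and 0.66 in CD38-negative replicates 1, 2 and 3. The ratio thus lay between 0.63 and 0.75 in 5 libraries and stood apart in 1. Of 10 HSC genes, 5 were highest in the same library and the other 5 in the CD38-positive replicate 3. Kit was at 555 CPM in the former against 109.6 to 226 CPM in the others, while Slamf1 was at 23.2 CPM there against 22.2 to 50.3 CPM. The summed B cell genes were at 176 CPM in that library (93.1 to 184 CPM in the others), the dendritic cell genes at 79.5 CPM (56.1 to 102 CPM), and the monocyte and macrophage genes at 921 CPM, the lowest of the 6. The part of any of these in the Cd74 level was not tested.

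**Figure D3:**
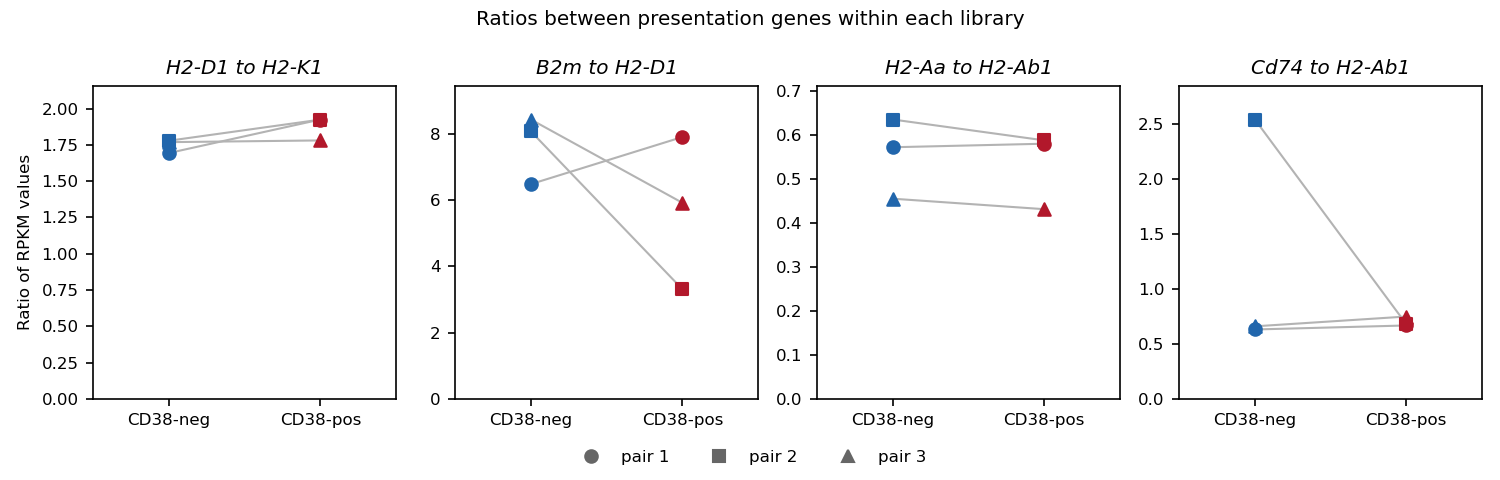
Ratio of RPKM values for 4 gene pairs within each library (axes from 0), CD38-negative in blue and CD38-positive in red, with lines joining the libraries of a pair. H2-D1 to H2-K1 stays between 1.69 and 1.92, and Cd74 to H2-Ab1 is between 0.63 and 0.75 except in the CD38-negative replicate 2, at 2.55.

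The genes of the peptide-loading dimer followed H2-Aa and H2-Ab1 more closely than H2-Eb1. H2-DMa (ENSMUSG00000037649, chromosome 17, 34119541 to 34139101, plus strand) was at 76.9, 44.5 and 71.4 CPM in CD38-positive and 68.6, 104 and 115 CPM in CD38-negative replicates 1, 2 and 3. The groups overlapped through pair 1. H2-DMb1 (ENSMUSG00000079547, chromosome 17, 34153072 to 34160230, plus strand) was at 34.8, 27.2 and 37.5 CPM against 34.5, 45.3 and 51.5 CPM, and the same libraries were low and high. The log2 fold changes were -0.58 for H2-DMa (SE 0.24, 95% interval -1.10 to -0.063, edgeR unadjusted p = 0.0306, adjusted p = 0.925) and -0.40 for H2-DMb1 (SE 0.21, 95% interval -0.86 to 0.065, edgeR unadjusted p = 0.0867, adjusted p = 0.926). The pair differences of H2-DMa were 0.16, -1.22 and -0.68, and its log2 fold change was -0.27 without pair 2 and -0.95 without pair 1 (edgeR unadjusted p = 0.00294, adjusted p = 0.418). That of H2-DMb1 was -0.24 without pair 2 and -0.60 without pair 1.

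Limits of the counting bear on these genes. Exons of Brd2 overlap H2-DMa on the opposite strand, and those of Dexi overlap Ciita, so that without a stated strand setting reads of the partners cannot be told apart. Of the 50-base words of H2-DMb1, 27.2% also occur in its neighbour H2-DMb2.

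Ciita (ENSMUSG00000022504, chromosome 16, 10480059 to 10528418, plus strand) was barely expressed. It had 56, 81 and 79 counts in CD38-positive replicates 1, 2 and 3 and 67, 67 and 37 counts in their CD38-negative partners, or 2.26 to 4.58 CPM. The CD38-negative replicate 3 was the lowest library and the CD38-positive replicate 2, where the class II chains were lowest, was the highest. Its log2 fold change was 0.32 (SE 0.36, 95% interval -0.45 to 1.10, edgeR adjusted p = 0.943), and without pair 3 it was 0.028.

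**Figure D4:**
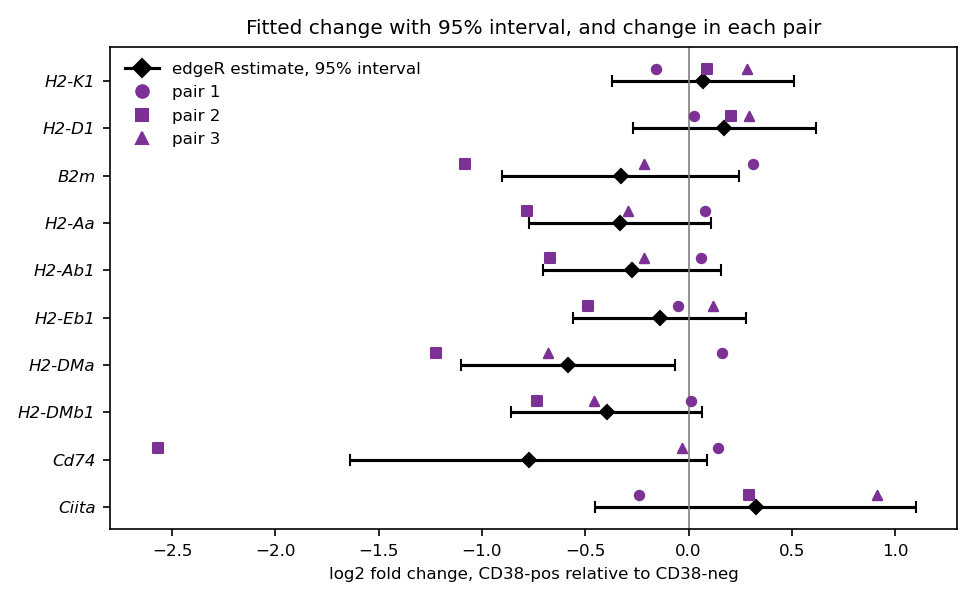
Log2 fold change of CD38-positive relative to CD38-negative libraries for each gene, as the edgeR estimate with its 95% interval (black) and as the difference in each pair (purple, by marker shape). Pair 2 lies lowest for B2m and for every class II gene but Ciita, down to -2.57 for Cd74, and no gene passed the adjusted threshold.

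Set side by side, 0 of the 10 genes passed an adjusted p of 0.05 in edgeR's quasi-likelihood test, where 0.0135% of all tested genes did (2 of 14785), 0.00676% higher and 0.00676% lower in CD38-positive cells. At an unadjusted p under 0.05 there was 1 of 10, H2-DMa, against 5.08% of tested genes, of which 2.47% were higher and 2.61% lower. Without the pair as a term it was 1 of 10 against 2.82%, and 0 of 10 after adjustment. DESeq2 with the same block also gave 0 adjusted calls and 1 unadjusted call, where 4.41% of all genes had one, and limma-voom gave 0 and 2 (5.47% of all genes). When a pair was left out, the unadjusted calls ran from 0 of 10 without pair 2 (3.49% of all genes) to 3 of 10 without pair 1 (8.06%). The median log2 fold change of the 10 genes was -0.30, with 3 above and 7 below 0, and that of all tested genes was 0.0004. The median differed between the pairs, at 0.043, -0.70 and -0.12 in pairs 1, 2 and 3, against 0.0029, -0.023 and 0.028 for all tested genes. None of the 10 had groups that did not overlap, which 6.51% of tested genes had (3.34% higher and 3.17% lower). On counts simulated for the same 14785 genes, edgeR called 49 of 100 genes changed by 2-fold and 94 of 100 changed by 4-fold. The 200 changed genes all had a mean of at least 20 counts. So many changed genes make the adjusted threshold easier to pass than in the data, where 2 genes passed. These shares are therefore too high for the data, and a change of 2-fold or well above it could have been missed. The antibody-related gene Jchain, at a log2 fold change of -4.26, had an edgeR adjusted p of 0.0701.

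Likeness between the members over the libraries did not follow the class I and class II division. Over the 6 libraries, log2 CPM of H2-Aa had a Pearson r of 0.98 with H2-DMa (Spearman rho 1), 0.94 with H2-DMb1 (rho 0.94) and 0.97 with B2m (rho 0.94). H2-K1 and H2-D1 had an r of 0.94 with each other (rho 0.89), and H2-D1 an r of -0.37 with B2m (rho -0.20). Ciita had an r of -0.69 with H2-Aa (rho -0.89). These values describe 6 libraries that share pairs and scaling, and are given with no test. Over the 4 libraries without pair 2, r was 0.9995 for H2-Aa with H2-DMa, 0.84 for H2-Aa with B2m, 0.93 for the heavy chains and -0.97 for H2-Aa with Ciita, but 0.25 for H2-D1 with B2m, which changed sign. H2-Aa with H2-Eb1 went from 0.80 to -0.036 and H2-DMa with H2-Eb1 from 0.71 to -0.033, while H2-K1 with H2-Eb1 went from -0.24 to 0.994 and H2-D1 with H2-Eb1 from -0.45 to 0.952. The likeness of H2-Eb1 to H2-Aa and H2-DMa thus rested on pair 2. With H2-Ab1, H2-Eb1 had an r of 0.88 over the 6 libraries and 0.62 without pair 2. Cd74 had an r of 0.49 with H2-Ab1 and 0.48 with H2-Eb1 over the 6 libraries, and 0.97 and 0.76 without pair 2.

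Outside the 10 genes, those with the most similar course were named by the highest r over the 6 libraries among 10354 genes at 5 CPM or more. For the mean of H2-Aa, H2-Ab1, H2-Eb1 and Cd74 they were Ggct, Zfp715, Slc25a45, Etnk1, Insig2, H2-T23, Paip2b and 2310011J03Rik, with r from 0.983 to 0.996 (0.926 to 0.998 without pair 2). H2-T23 encodes the non-classical class I molecule Qa-1 and was at 201, 140 and 213 CPM in CD38-positive and 187, 272 and 251.5 CPM in CD38-negative replicates 1, 2 and 3. For the mean of H2-K1, H2-D1 and B2m they were Gm16933, Etfbkmt, Sec22a, Ecm1, Specc1l, Cabcoco1, Tnfaip1 and Pomgnt1, with r from 0.979 to 0.991 (0.971 to 0.999 without pair 2). B2m had an r of -0.26 with H2-K1 and -0.37 with H2-D1, so this mean is not a course that all its genes share. Both sets were picked as the highest of 10354 genes over 6 libraries, so their r values are high by selection and were not tested.

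Of the wider pathway, 62 genes were listed by role and 56 were tested. None passed the adjusted threshold in edgeR's quasi-likelihood test. An unadjusted p under 0.05 was reached by 6, of which 4 were higher and 2 lower in CD38-positive cells. Among all tested genes 5.08% had an unadjusted p under 0.05, 2.47% higher and 2.61% lower. When pair 2 was left out, H2-Q10, March1 and Irf8 still had one, at log2 fold changes of 1.115, 0.68 and 0.58, and Mr1, Ifngr2 and Irf2 did not, at -0.42, 0.26 and -0.13. March1 also had a p above 0.05 without pair 1 or pair 3 (0.0818 and 0.0705, unadjusted), and Ifngr2 without pair 3 (0.111). The median log2 fold change was -0.077. The groups did not overlap for 4 genes higher in CD38-positive cells (H2-Q10, March1, Ifngr2 and Irf1) and 1 lower (Rfxank). Among all tested genes these shares were 3.34% and 3.17%. In the peptide supply to class I, 13 of 13 genes were tested and 0 reached an unadjusted p of 0.05. Psmb10, an immunoproteasome subunit, was nearest at -0.41 (edgeR unadjusted p = 0.0581, 0.926 after adjustment). The transporter gene Tap1 had 0.24 and the disulfide isomerase gene Pdia3 of the loading complex 0.21.

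Among 16 non-classical class I genes, of which 12 were tested, H2-Q10 and Mr1 had unadjusted p-values under 0.05. H2-Q10, a secreted class I molecule best known from liver, was at 13.9, 11.2 and 16.0 CPM in CD38-positive and 7.96, 6.94 and 5.80 CPM in CD38-negative replicates 1, 2 and 3. Each CD38-positive library was above each CD38-negative one, which held for 3.34% of tested genes. The log2 fold change of H2-Q10 was 0.98 (SE 0.27, edgeR unadjusted p = 0.003, adjusted p = 0.852). Mr1, which presents microbial vitamin metabolites, was lower in 3 of 3 pairs, as were 11.2% of tested genes. Its log2 fold change was -0.63 (SE 0.23, edgeR unadjusted p = 0.0166, adjusted p = 0.925), with overlapping groups. H2-T23 had -0.36 (edgeR adjusted p = 0.926).

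On the class II side, 3 of 5 other chain genes were tested and none reached an unadjusted p of 0.05. H2-Oa and H2-Ob, whose products restrain H2-DM, had log2 fold changes of -0.36 and 0.070, and H2-DMb2 had -0.069. Of 5 endosomal genes, March1, a ubiquitin ligase that removes class II from the surface, was at 23.6, 15.0 and 19.3 CPM in CD38-positive and 14.3, 10.3 and 12.2 CPM in CD38-negative replicates 1, 2 and 3. Its groups did not overlap, and 3.34% of tested genes likewise had all CD38-positive libraries higher. Its log2 fold change was 0.64 (SE 0.24, edgeR unadjusted p = 0.0166, adjusted p = 0.925). The thiol reductase gene Ifi30 had 0.36 and the protease gene Lgmn 0.29.

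Regulators were tested in the same way. Of 8 genes that act on class I and II promoters, 0 reached an unadjusted p of 0.05, and Nfyc, Rfxank and Creb1 were nearest at 0.37, -0.29 and -0.26. Of 9 genes of the interferon gamma response, the receptor chain Ifngr2 (0.47) and the transcription factor gene Irf8 (0.87) were higher and Irf2 (-0.78) lower at an unadjusted p under 0.05. Irf8, a factor of dendritic cell and monocyte development, was at 171, 253 and 110 CPM in CD38-positive and 137, 94.8 and 59.8 CPM in CD38-negative replicates 1, 2 and 3. It was higher in 3 of 3 pairs, as were 13.2% of tested genes, with overlapping groups (SE 0.22, edgeR unadjusted p = 0.00151, adjusted p = 0.695). With no filter on low counts Irf8 passed the threshold (edgeR adjusted p = 0.0237), where 80 genes did in all. Irf2 came from pair 2, at -2.15, against -0.24 and 0.017 in pairs 1 and 3. Of 6 costimulatory ligands 0 reached an unadjusted p of 0.05, with Pdcd1lg2, Cd274 and Icosl at -0.75, -0.42 and -0.84.

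**Figure D5:**
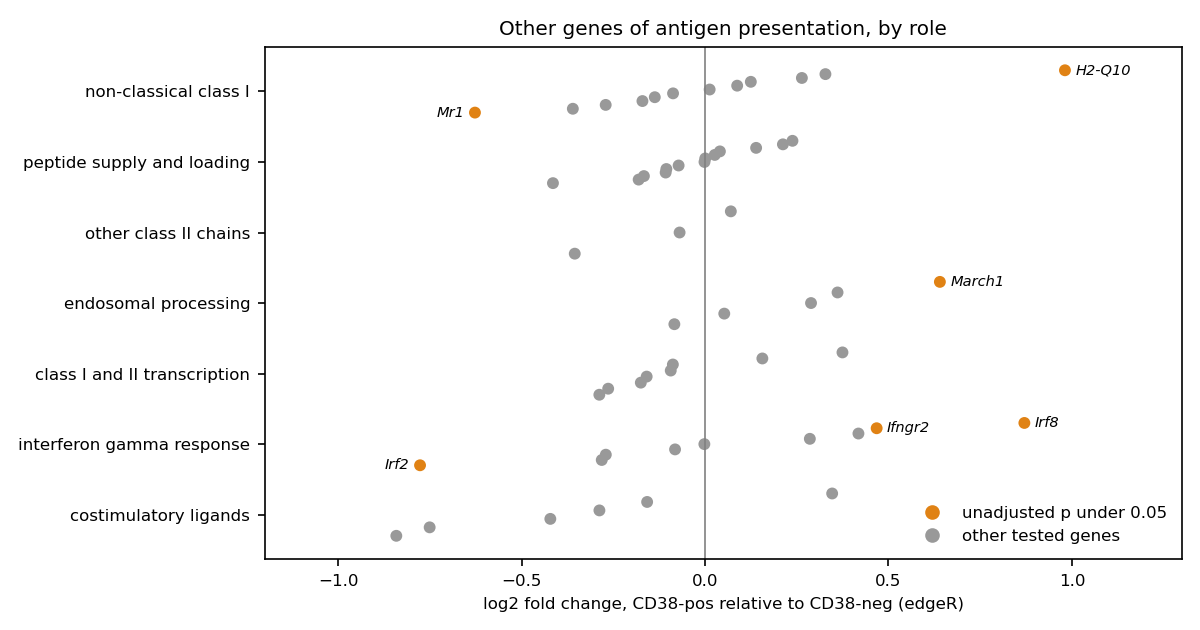
Log2 fold change (CD38-positive relative to CD38-negative, edgeR) of the 56 tested genes of the wider pathway, by role, with orange for an unadjusted p under 0.05. The 6 named genes are orange and none passed the adjusted threshold.

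Genes that mark other cells able to carry class II were measured beside these values. Of 10 B cell genes all were detected, with a summed level of 93.1 to 184 CPM in CD38-positive and 110.1 to 176 CPM in CD38-negative libraries. Cd79b, a B cell receptor subunit, was at 29.6 to 41.0 RPKM, on the scale on which H2-Ab1 was at 42.0 to 94.9. The 10 dendritic cell genes summed to 84.4 to 100.3 CPM and 56.1 to 102 CPM. Their log2 fold changes (median 0.62) were above 0 for 9 of 10, and those of all tested genes for 7404 of 14785. In edgeR's test 0 of the 10 had an unadjusted p under 0.05. Their median differences were uneven, at -0.18, 0.36 and 1.26 in pairs 1, 2 and 3. In that list Itgax was at 0 to 0.918 RPKM, Cd209a at 1.81 to 7.48 RPKM and Flt3, which early progenitors also express, at 6.67 to 11.6 RPKM. The 10 monocyte and macrophage genes summed to 935 to 2241 CPM and 921 to 1275 CPM. Their median log2 fold change was 0.19, that of B cell genes 0.083, of neutrophil genes 0.11, of T and NK cell genes -0.044, of endothelial genes 0.16 and of HSC genes -0.24. Plasma cell genes, with a median of -0.43, summed to 648 to 955 CPM in CD38-positive and 1058 to 3313 CPM in CD38-negative libraries. Of them 1, the antibody gene Igha, passed the adjusted threshold. Igkc, Jchain and Igha had log2 fold changes of -3.07, -4.26 and -4.40. Those of Sdc1, Mzb1, Xbp1 and Derl3 were -0.43, -0.12, 0.17 and 0.90, and Tnfrsf17 did not pass the filter on low counts. The part of these cells in the class II levels was not tested.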

How the data were processed

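The authors deposited 1 table of raw counts per Ensembl gene for each of 6 libraries; cutadapt, STAR, HTSeq 0.6.1p1 and the build GRCm38 (mm10) are named per the submitters' processing notes, and the annotation release and strand setting are not given in the sources used here. Symbols matched 49326 of 49585 identifiers; coordinates and exon lengths came from GENCODE M21 on GRCm38.

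Counts were analysed in R 4.3.3 with edgeR 4.0.16: filterByExpr, TMM scaling, and the quasi-likelihood F-test with pair and population as terms over all 6 libraries, with Benjamini-Hochberg adjustment over 14785 genes and a threshold of 0.05. Standard errors and 95% intervals were derived from the quasi-F statistic. Pair differences and correlations are on log2 CPM (prior count 2). The pairs come from the series' design text; once population means were removed, partners had correlations of 0.34, 0.12 and 0.24. That partners share mice is not stated, and p-values measure the spread between these pools. No library repeated another (chi-square over degrees of freedom at least 52.6 within a population). The procedure was tested on simulated data.

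The members and lists were chosen with earlier results of these data known. All 10 members are given, and of each other role up to 3 genes with the smallest p-values; genes of similar course are those with the highest Pearson r. Alternatives were a fit with no pair term, limma-voom (limma 3.58.1), DESeq2 1.42.0, other scalings and filters, and leaving out each pair. Intervals for counts of 0 cover counting error only.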

Additional observations from a re-analysis of the deposited data

How the results depend on the processing

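None of the 10 genes passed the adjusted threshold under any of the 10 alternatives, and of their 100 alternative log2 fold changes 96 kept their direction. The other 4 changed sign when a pair was left out. The remaining alternatives refit the same libraries, so a kept direction there says little. H2-K1 was at -0.036 without pair 3 (up to 0.19 without pair 1). B2m, H2-Eb1 and Cd74 were at 0.035, 0.020 and 0.042 without pair 2, and at their lowest at -0.65, -0.27 and -1.30 with another pair left out. The fit with no replicate block gave 0 members and 0 related genes past the threshold. Over all genes the count past the threshold was 2, with 0 under no replicate block (417 before adjustment), 0 with library totals left unscaled (595 before adjustment), 11 with DESeq2, 7 with DESeq2 size factors, 80 with no filter, 13 with a mean of at least 10 counts, and 2 to 41 when a pair was left out; the cause was not tested. Among related genes 1 passed with no filter, Irf8. With the longest transcript as the length, mean levels were 784 RPKM for H2-K1, 1112 for H2-D1, 144 for H2-Ab1, 44.6 for H2-Eb1, 39.9 for H2-DMa and 0.617 for Ciita. Correlations without pair 2 and the related genes without each pair were chosen after seeing the data, and the correlation of H2-D1 with B2m changed sign to 0.25. The scalings put the median gene between -0.018 and 0.0037. Levels under 3 counts, at most 0.183 CPM, were not detectable.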

Other observations

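The CD38-negative replicate 2, in which Cd74 was high, also held most of the reads of the class II beta gene H2-Eb2, chosen after its values were seen. H2-Eb2 had 22 counts there, 3 in the CD38-negative replicate 1 and 0 in the other 4 libraries, and did not pass the filter on low counts. Among costimulatory ligands, Icosl was highest in the same library, at 1.998 CPM against 0.396 to 1.31 CPM in the others. These are low counts, 36 against 7 to 22. Pdcd1lg2 was at 3.72 CPM there against 1.36 to 4.09 CPM. Irf2 was at 45.2 CPM there against 10.1 to 18.9 CPM. By contrast Cd80 was lowest there, at 0.444 CPM against 1.02 to 1.71 CPM, or 8 counts against 18 to 31.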
